A study of Mus musculus with 12 samples.

Results

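Prostaglandins are lipid signals made from arachidonic acid. The cyclooxygenases turn arachidonic acid into an unstable intermediate, terminal synthases turn that into PGE2, PGD2 or other prostaglandins, and a dehydrogenase inactivates them. In tumours, PGE2 is best known for acting on immune cells through receptors that raise cyclic AMP. Here 8 genes of this system were followed at the RNA level among the 32285 genes of mouse tumours profiled by single-cell RNA-seq. They are the cyclooxygenase genes Ptgs1 (COX-1) and Ptgs2 (COX-2), the PGE synthase gene Ptges, the PGD synthase gene Ptgds, and Akr1c18, which encodes an aldo-keto reductase with 20-alpha-hydroxysteroid dehydrogenase activity. The others are Hpgd, which encodes the prostaglandin-inactivating 15-hydroxyprostaglandin dehydrogenase, and the genes of the PGE2 receptors EP2 (Ptger2) and EP4 (Ptger4). They were picked by name with earlier results of these data known, and summed unique molecular identifiers (UMIs) per tumour and cell class were part of that choice. Their levels and changes are therefore given as descriptions. The members went through the same fits as all other genes, and how many passed is stated beside the share of all genes that did. Tests are read only for other genes of the pathway and for co-detection within cells. Those other genes were also listed with earlier results of these data known. Their p-values therefore describe these data and are not an independent check.

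The tumours came from 4 lines labelled SCC35: 2 Mif KO control lines, 15 and 18, and 2 Mif KO lines, 19 and 24. Mif encodes the cytokine macrophage migration inhibitory factor. Tumours carried antibody hashtags that give the line and the day (0, 6, 10 or 16). The labels name no treatment, host strain or age, and do not say what day 0 stands for or whether a line is 1 clone. Every hashed sample is called a tumour below, day 0 samples included, though those may not be tumours. Each line had a 10x library of its own, and 2 mixed libraries pooled further tumours, among them 3 hashtags named WT that belong to neither group and are listed singly. After cell filters, 45 tumours were used: 11 of line 15, 10 of line 18, 11 of line 19, 10 of line 24 and 3 WT. Line is nested in group, 2 lines against 2, so every group difference and p-value below is about these 4 lines, and in the single-line libraries line and library cannot be told apart.

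The 6 libraries held between 151385933 and 239699029 gene UMIs, with a median of 3072 to 9121.5 UMIs per cell. Between 3.41% and 4.827% of the smaller library's barcodes recurred in another library. Of 163866 cells passing filters, 100557 carried 1 hashtag; 38846 with several hashtags and 24463 with none were left out. Levels are CPM values, a gene's share of all gene UMIs, scaled to 1000000, in the summed cells of a class in 1 tumour, for classes with at least 20 cells. A CPM of a class is an average, so fewer expressing cells and less RNA per cell cannot be told apart from it. Line cells were clusters where the leukocyte gene Ptprc was at most 10% of its level in macrophage/monocyte-like cells. These clusters had no host name and fewer than 3 markers of any host type at the level used for naming. In them Mif checked the labels: line 15 held 2458 ± 393 CPM (SD, n = 11 tumours) and line 18 held 2169 ± 268 (n = 10), against 104 ± 93.5 for line 19 (n = 11) and 467 ± 190 for line 24 (n = 10). The KO means pool separate levels: line 19 stood at 42.5 to 54.4 CPM in its own library and 231 to 267 in the mixed one, and line 24 at 225 to 471 and 703 to 723. Every KO tumour was below every control tumour (lowest 1788). The WT tumours held 2244, 2466 and 2623 CPM. The series title speaks of melanoma; of 6 melanocytic markers in line cells, Tyr was at 0 in all 45 tumours, Tyrp1 was above 0 in 1, Dct in 2, Mlana in 9 and Pmel in 34 (at most 0.533 CPM), while Mitf was above 0 in all 45 (6.60 to 22.5 CPM).

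On the GRCm38 build, Ptgs2 lies on the plus strand at chr1:150100031-150108227 with 10 exons, and Akr1c18 on the minus strand at chr13:4132615-4150654 with 9 exons. The other members are Ptgs1 (chr2:36230426-36252272, plus), Ptges (chr2:30889471-30929863, minus), Ptgds (chr2:25466709-25470046, minus), Hpgd (chr8:56294585-56321043, plus), Ptger2 (chr14:44988195-45003820, plus) and Ptger4 (chr15:5206661-5244187, minus). Gene models of unstated strand handling overlap Ptgs1 (Gm43621), Ptges (Gm13400), Hpgd (Gm45540), Ptger2 (Gm17173 and Gm49364) and Ptger4 (Gm15937 and Ttc33). Akr1c18 sits among 7 Akr1c relatives on chromosome 13 between 4049011 and 4586541, so reads shared with a near-identical relative are possible.

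Ptgs2 and Akr1c18 were found in the same line cells more often than their separate frequencies give, so the sequence upstream of each start is shown. Sequences are RefSeq reference windows for GRCm38.p6, 250 bases up to the RefSeq start, and for Ptgs2 also the first 30 bases from it. RefSeq starts Akr1c18 at 4150646, inside the gene as given above from the GENCODE annotation, so the window's last bases overlap that longer model; capitals mark matches to the motifs searched.
Ptgs2 upstream, plus strand, chr1:150099781-150100030: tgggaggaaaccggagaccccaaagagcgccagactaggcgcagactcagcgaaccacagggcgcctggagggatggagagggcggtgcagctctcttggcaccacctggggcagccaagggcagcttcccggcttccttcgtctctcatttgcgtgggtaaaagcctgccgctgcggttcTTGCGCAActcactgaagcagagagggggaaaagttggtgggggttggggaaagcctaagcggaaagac
Ptgs2 from the start, plus strand, chr1:150100031-150100060: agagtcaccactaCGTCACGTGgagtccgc
Akr1c18 upstream, minus strand, chr13:4150647-4150896: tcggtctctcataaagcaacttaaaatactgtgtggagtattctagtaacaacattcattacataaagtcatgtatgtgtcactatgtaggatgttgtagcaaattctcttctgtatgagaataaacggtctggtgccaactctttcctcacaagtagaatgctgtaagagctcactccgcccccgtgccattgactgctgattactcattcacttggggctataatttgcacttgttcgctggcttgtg
Short motifs were searched on both strands in 32851 windows that reach 50 bases past the start. TTGCGCAA, a C/EBP-type palindrome, stood 69 to 62 bases before the Ptgs2 start and was in 0.1826% of all windows. CGTCA, the cyclic AMP response element half-site, lay at bases 14 to 18 after the Ptgs2 start (20.81% of windows) and overlapped CACGTG, an E-box, at bases 17 to 22 (7.15%). Of the other motifs, TATAAA (13.62% of windows) was in the Hpgd window and TGANTCA, the AP-1 motif (7.808%), in the Ptgds window. The Akr1c18 window held none of these letters. A match describes letters in a window and is not evidence of binding.

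The 8 genes had their highest mean levels in different cell classes, and no class ranked first for all 8. Classes were rebuilt here from 57 clusters and marker genes, so their names carry "-like". Ptgs1 stood at 37.8 ± 18.1 CPM in Fibroblast-like cells (SD, n = 30 tumours; 7.03 to 67.9) and at 30.5 ± 15.2 in line cells (n = 42; 8.53 to 65.0), which differ by less than their spread. Cluster B6, an unnamed cluster, held 36.9 ± 18.3 (n = 9). All 9 were KO tumours, 7 of them of line 24, and in KO tumours Fibroblast-like cells held 21.9 CPM and line cells 30.6. In control tumours Fibroblast-like cells held 50.03 CPM, above line cells. The pooled means thus average groups that went opposite ways. Macrophage/monocyte-like cells held 6.63 CPM and T-cell-like cells 3.39. With each cell thinned to 1000 UMIs, 4.17% of B6 cells, 2.90% of line cells and 2.93% of Fibroblast-like cells had a Ptgs1 UMI, against 0.356% of T-cell-like cells; unthinned, the first 3 shares were 8.94%, 17.8% and 20.8%. T-cell-like cells serve as the background class here, at a median of 1485 UMIs per cell against 7131 in line cells and 7376 in Fibroblast-like cells. Cells under 1000 UMIs are left out of all thinned shares and counts. These were 2423 of 11225 macrophage/monocyte-like, 678 of 3206 T-cell-like, 338 of 440 Neutrophil-like and 1210 of 58481 line cells.

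Ptgs2 was the most widely spread of the 8, at high levels in myeloid clusters, Fibroblast-like cells and, lower, in line cells. The highest mean, 429 ± 190 CPM (n = 13; 142 to 850), was in cluster B13, which stayed unnamed and had 12 control tumours and 1 KO tumour. Neutrophil-like cells held 285 ± 133 CPM (n = 9), cluster B6 284 ± 104 (n = 9), macrophage/monocyte-like cells 209 ± 106 (n = 35; lowest 73.2, median 212, highest 583), Fibroblast-like cells 167 ± 87.9 (n = 30) and cDC2-like cells 164 ± 95.1 (n = 19). Neighbours in this order differed by less than the larger SD. The order pools tumours of unequal groups: the B6 tumours were all KO, the Osteoclast-like ones all control, and 8 of the 9 Neutrophil-like ones control. In control tumours B13 held 437 CPM, Neutrophil-like cells 308, Fibroblast-like cells 215, cDC2-like cells 207 and macrophage/monocyte-like cells 181. In KO tumours B6 held 284, macrophage/monocyte-like cells 238, cDC2-like cells 140 and Fibroblast-like cells 104. The unnamed cluster A5 held 101 ± 52.6 CPM (n = 10) over all its tumours. Line cells held 69.0 ± 35.4 CPM (n = 42; 18.1 to 164), T-cell-like cells 14 ± 10.6 (n = 29) and Osteoclast-like cells 8.69 ± 6.57 (n = 13). In thinned cells, 30.6% of B13, 21.1% of B6, 14.4% of macrophage/monocyte-like, 14.2% of Fibroblast-like and 6.08% of line cells had a Ptgs2 UMI, against 1.27% of T-cell-like cells. Unthinned, these shares were 50.5%, 36.0%, 22.2%, 45.7%, 23.2% and 2.31%.

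Within the macrophage/monocyte-like class, Ptgs2 had its highest means, pooled over the lines, in the clusters led by monocyte genes. This order need not hold within each line. Clusters B1 (led by Ly6i, Clec4e, Plac8 and Ly6c2) and B3 (led by Chil3, Plac8 and Ly6c2) held 344 ± 125 and 337 ± 136 CPM (SD, n = 26 tumours each). Cluster B2, led by the resident-macrophage genes Pf4, Folr2, Mrc1 and C1qa, held 83.4 ± 44.2 (n = 25), B19 (led by Fcrls, Slamf9 and C1qc) 83.0 ± 39.1 (n = 8) and B24 (led by Ccl12 and Ifi208) 73.0 ± 43.5 (n = 4). B12 varied widely, at 204 ± 194 CPM (n = 22; lowest 0, median 134, highest 752); Stab1 and Mrc1 are among its leading genes, and its cells had a median of 817 UMIs. B1 and B3 are also the shallower cells, with medians of 1181 and 1699 UMIs against 2983 in B2; clusters were formed on these cells' own expression, so these values are a description.

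Among the terminal enzymes, Ptges had its highest level in Fibroblast-like cells and Ptgds was almost a line-cell gene. Ptges stood at 141 ± 79.1 CPM in Fibroblast-like cells (n = 30; lowest 27.1, median 130, highest 331), from 2169 UMIs in 1874 cells. The next class, Osteoclast-like cells, held 5.03 CPM, line cells held 2.50 ± 1.25 (n = 42; 0.533 to 5.55), and macrophage/monocyte-like cells 2.04. That step from Fibroblast-like cells to the next class was larger than the SD. Since line cells were far more numerous, they held 1352 of the 3843 Ptges UMIs over all classes (35.2%) at this low level, and Fibroblast-like cells 2246 (58.4%). In thinned cells, 13.9% of Fibroblast-like cells had a Ptges UMI (48.7% unthinned), against 0.274% of line, 0.204% of macrophage/monocyte-like and 0.119% of T-cell-like cells. The Fibroblast-like cells form 1 cluster in which 37.3% of barcodes carried several hashtags, which were left out, and 6 of 8 fibroblast markers passed the marker rule. Pdgfra, Dpt, Lum and Dcn were above 0 in all 33 tumours that had enough of these cells.

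Ptgds, whose enzyme makes PGD2, stood at 40.9 ± 22.5 CPM in line cells (n = 42; lowest 7.48, median 40.2, highest 92.3). Line cells held 21273 of the 22262 Ptgds UMIs, 95.6%. They were 63.7% of the cells counted, at a median of 7131 UMIs per cell. Part of that share therefore reflects their number and depth, which the CPM levels allow for. Fibroblast-like cells held 3.95 CPM, macrophage/monocyte-like cells 3.99 and T-cell-like cells 2.99. Neutrophil-like cells, at 36.1 ± 48.2 CPM (n = 9), rest on 14 UMIs. Cluster A5, which stayed unnamed, held 21.7 ± 12.4 CPM (n = 10) from 166 UMIs, with a Ptgds UMI in 2.2% of its thinned cells. After thinning, 4.56% of line cells had a Ptgds UMI (18.4% unthinned), against 0.303% of Fibroblast-like and 0.356% of T-cell-like cells. Among line clusters the highest mean was in A18, 231 ± 82 CPM (n = 9).

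Akr1c18 was mainly a line-cell gene as well, but unevenly so. Line cells held 36.7 ± 41.6 CPM (n = 42; lowest 0, median 23.4, highest 174) and 18192 of 20261 UMIs, 89.8%. Part of that share reflects the number and depth of line cells, which were 63.7% of the cells counted. The Neutrophil-like mean of 55.2 ± 111 CPM (n = 9) rests on 23 UMIs. Fibroblast-like cells held 17.3 CPM, T-cell-like cells 6.21 and macrophage/monocyte-like cells 5.11. In thinned cells the shares were 2.36% of line cells, 1.41% of Fibroblast-like cells and 0.435% of T-cell-like cells, and unthinned 8.63%, 5.62% and 0.811%.

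Hpgd, the inactivating enzyme, was rare in most classes and almost missing from line cells. It gave 560 UMIs in all, 253 of them in Fibroblast-like cells. The level there was 15.3 ± 14.4 CPM (n = 30 tumours with enough cells), and macrophage/monocyte-like cells held 6.78 ± 5.75 (n = 35). Line cells held 30 UMIs in 58481 cells, a mean of 0.0674 CPM. The share of thinned cells with a Hpgd UMI was 1.46% in Fibroblast-like cells, 0.454% in macrophage/monocyte-like cells and 0.00698% in line cells, and it was 0 in T-cell-like cells; unthinned, the first 3 shares were 6.17%, 1.08% and 0.0445%. Another 30 UMIs came from 135 Keratinocyte-like cells, which had the highest share of any class, 2.33% thinned and 9.63% unthinned. The thinned share rests on 3 of 129 cells, and no tumour had enough of these cells for a mean level.

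Ptger4 had its highest mean level in Mature DC-like cells and Ptger2 in the unnamed cluster B7. Ptger4 stood at 127 ± 52.4 CPM in Mature DC-like cells, dendritic cells in their lymph-node-homing state (n = 9 tumours; lowest 37.3, median 118, highest 211). cDC2-like cells held 41.8 ± 28.4 (n = 19), cluster B7 22.2 ± 12.7, macrophage/monocyte-like cells 21.1 ± 20.4 (n = 35; lowest 3.35, median 15.9, highest 125), NK-like cells 16.8 and T-cell-like cells 13.7. Only the step below Mature DC-like cells exceeded the larger SD. All 9 Mature DC-like tumours were of the KO lines, while the cDC2-like and macrophage/monocyte-like means pool control and KO tumours. Line cells held 0.902 ± 0.653 CPM. Osteoclast-like cells had a Ptger4 UMI in 3 of 1074 cells, and Neutrophil-like cells, at a median of 727 UMIs, in 0 of 440. The count of 0 allows up to 0.682% of cells with a UMI, a limit on detection at this depth and not on expression. These counts are too few to rank against line cells (0.819% unthinned). After thinning, 10.1% of Mature DC-like cells had a Ptger4 UMI (22.7% unthinned), against 1.94% of macrophage/monocyte-like cells, 1.31% of T-cell-like cells and 0.113% of line cells. Keratinocyte-like cells, with 3 of 129 thinned cells (2.33%; 5.93% unthinned), had no tumour with 20 cells or more and so no mean level.

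Ptger2 was the rarest receptor, with 204 UMIs over all classes. Cluster B7, an unnamed cluster led by Tnfsf11, Cd4 and Ifng, held 50 of them at 22.7 ± 26.1 CPM (n = 18 tumours, 15 of them KO). T-cell-like cells held 6.20 ± 9.24 CPM (n = 29), macrophage/monocyte-like cells 2.12, and line cells 10 UMIs in all. In cDC2-like cells 1 of 1078 cells had a Ptger2 UMI, and in Osteoclast-like cells 0 of 1074. The latter allows up to 0.279% of cells with a detected UMI and does not limit expression below detection. In thinned cells the share was 1.45% in B7 (2.44% unthinned), 0.593% in T-cell-like cells, 0.170% in macrophage/monocyte-like cells and 0 in line cells. The Keratinocyte-like cells, which are not immune cells, had the highest share, 2.33% thinned and 4.44% unthinned, from 8 UMIs in 135 cells. At this depth the ranks of Ptger2 between immune classes were within the spread.

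**Figure D1:**
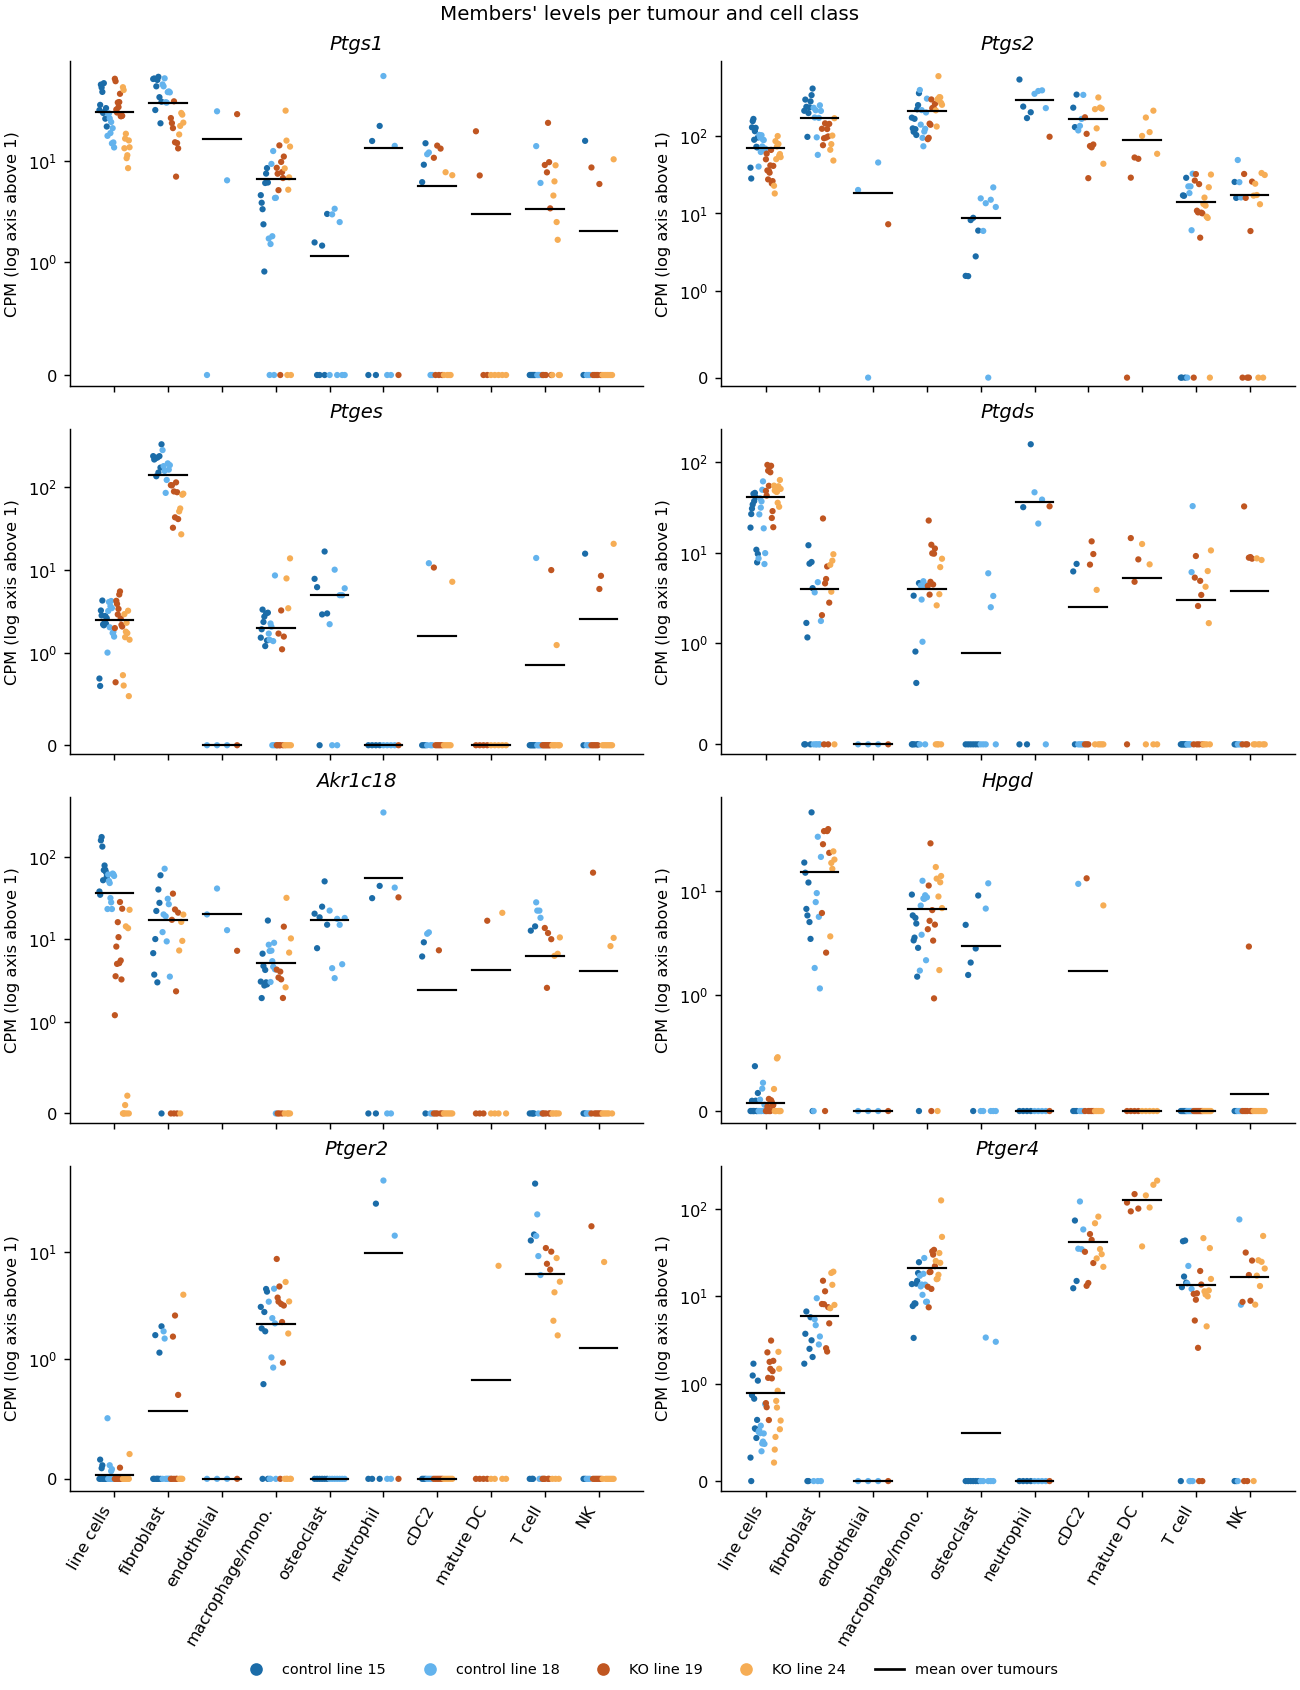
CPM of each of the 8 genes (y axis, logarithmic above 1 and linear below) by cell class (x axis); each point is 1 tumour, coloured by line, and the black bar is the mean over tumours. Ptges points lie above 27 CPM in Fibroblast-like cells alone, Ptgds and Akr1c18 reach high values in line cells with few UMIs behind the Neutrophil-like points, and Ptger4 is highest in Mature DC-like cells.

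Knockout and control line cells were compared to see which pathway genes went with the Mif label inside the line cells. Akr1c18 differed most among the members: 65.8 ± 41.2 CPM in 21 control tumours (lowest 23.3, median 58.7, highest 174) and 7.71 ± 8.87 in 21 KO tumours (lowest 0, median 5.04, highest 28.4). Of the KO tumours, 19 lay below every control tumour. The log2 difference, KO against control, was -3.00 (SE 0.40), and -1.57 with library as a term. Ptgs2 was 88.8 ± 35.4 CPM in controls (28.2 to 164) and 49.1 ± 22.0 in KO (18.1 to 99.0), a log2 difference of -0.80 (SE 0.16); the groups overlapped, with 5 KO tumours below all controls. Ptgds went the other way, 28.3 ± 15.7 CPM in controls (7.48 to 60.8) and 53.5 ± 21.4 in KO (19.0 to 92.3), log2 difference 1.06 (SE 0.16), with 6 KO tumours above all controls. Ptgs1 (30.4 and 30.6 CPM) and Ptges (2.53 and 2.47 CPM) had log2 differences of -0.07 and 0.08. The Ptgs1 means pool days that differed. On day 0 lines 19 and 24 held 63.2 and 52.0 CPM, and lines 15 and 18 held 33.9 and 17.8 (1 tumour). On day 16 lines 19 and 24 held 39.5 and 10.2, and lines 15 and 18 held 39.8 and 19.4. Of the 5 members with enough counts to be fitted, 1 was called higher and 2 lower at an adjusted p of 0.05 (edgeR), where 25.1% of 11768 genes were called higher and 24.6% lower. Since the members were chosen on these sums, nothing is read from that count.

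By day, the lines did not share 1 course. Ptgs2 in line 15 stood at 33.5 CPM on day 0 (n = 2), 79.2 on day 6, 149 on day 10 and 110 on day 16 (n = 3 each). Line 18 held 40.1 (n = 1), 74.3, 86.4 and 87.7, and line 24 held 20.4, 55.6, 69.3 and 77.4. Line 19 held 54.3 CPM on day 0 and 30.4, 32.8 and 46.9 afterwards, so its day 0 tumours (49.7 and 58.8) were above all but 1 of its later ones. The WT tumours held 92.1, 81.4 and 105 CPM on days 6, 10 and 16.

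Akr1c18 peaked at day 10 in line 15, at 155 ± 20.5 CPM (133 to 174, n = 3) against 36.4, 64.2 and 66.7 on days 0, 6 and 16. In line 18 it went from 23.3 (1 tumour) to 61.0, 53.5 and 27.7. In line 19 the means were 2.39, 10.8, 9.80 and 14.7, and in line 24 they were 0, 11.4, 4.82 and 4.62, but the day 0 tumours all came from the lines' own libraries. In those libraries alone, line 19 held 2.39, 4.41, 6.61 and 7.90 CPM and line 24 stayed at or below 0.194 on every day. The WT tumours held 23.0, 23.9 and 17.4 CPM.

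Ptgds on days 0, 6, 10 and 16 stood at 22.7, 9.40, 36.2 and 41.0 CPM for line 15 and at 45.1, 23.9, 75.4 and 85.0 for line 19, lower on day 6 than on day 0 in both. Line 18 held 8.62 (1 tumour), 11.9, 32.4 and 48.8. Line 24 had neither course, at 51.4, 56.6, 47.8 and 40.3 CPM from day 0 to day 16. WT tumours held 15.1, 38.0 and 60.1 CPM on days 6, 10 and 16. Ptgs1 stood at 52.0 CPM on day 0 in line 24 and at 14.8, 16.2 and 10.2 afterwards; in line 19 it was 63.2 and then 27.9, 33.4 and 39.5. Line 15 held 33.9, 27.2, 52.8 and 39.8 CPM of Ptgs1, and line 18 held 17.8 (1 tumour), 16.7, 28.4 and 19.4.

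**Figure D2:**
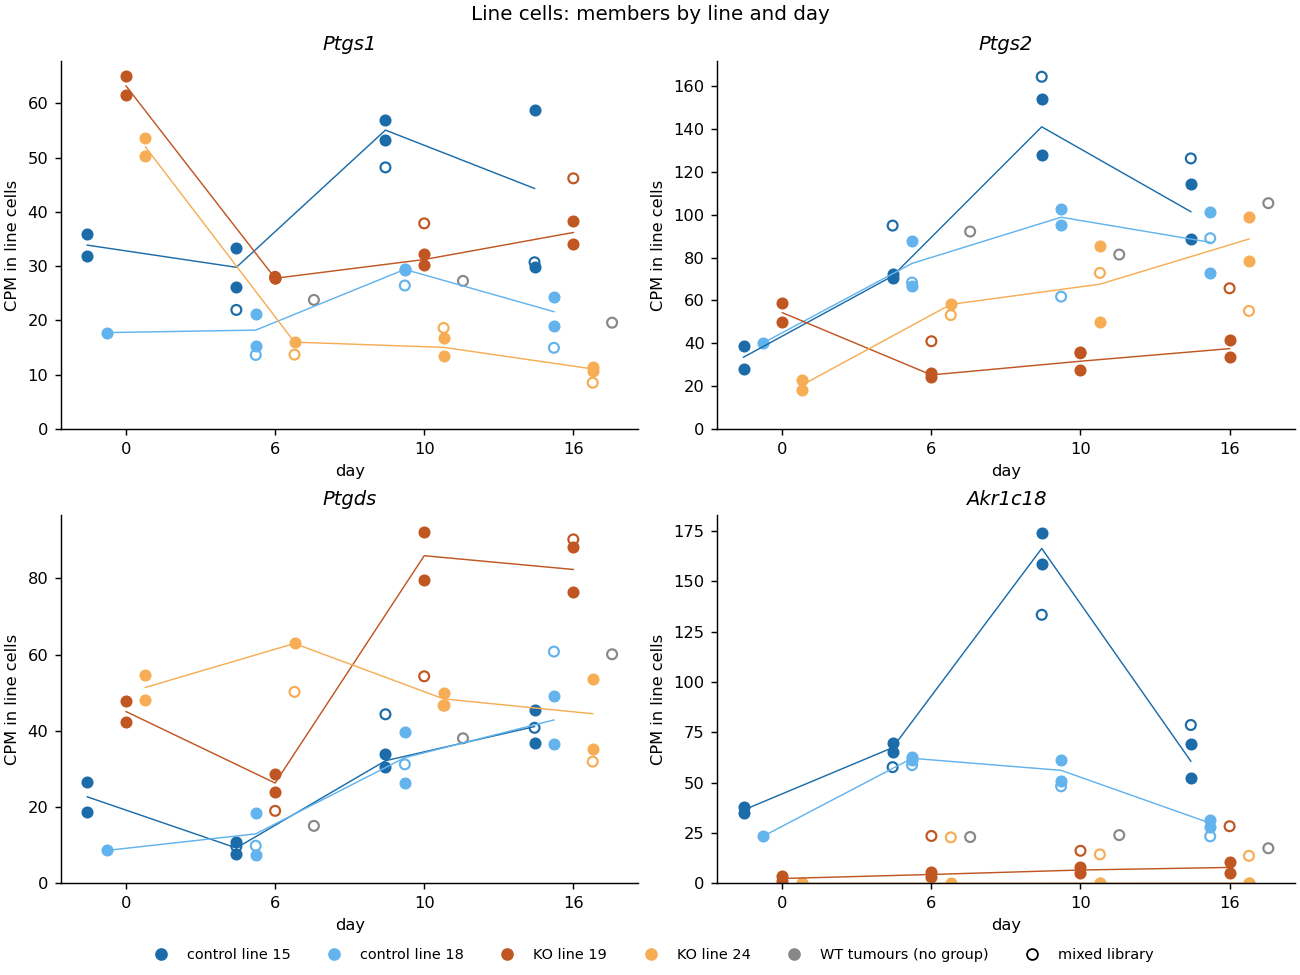
CPM of Ptgs1, Ptgs2, Ptgds and Akr1c18 in line cells (y axes) by day (x axes, days evenly spaced); each point is 1 tumour coloured by line, open points are from mixed libraries, WT tumours are grey, and the lines join the means of the single-line library tumours. Akr1c18 of line 15 stands apart on day 10 at 133 to 174 CPM, and Ptgs2 of line 19 is lower on days 6 and 10 than on day 0.

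How low Akr1c18 was in KO tumours differed between the single-line and mixed libraries. All mixed-library tumours carry the replicate letter C in the hashtag sheet, and all others A or B. Library and replicate letter therefore cannot be told apart. In the single-line libraries, line 24 gave 2 Akr1c18 UMIs in 7942 line cells (0 to 0.194 CPM, n = 7 tumours), while its 3 tumours in the mixed library held 22.8, 14.4 and 13.7 CPM. Line 19 held 5.32 ± 2.95 CPM alone (1.203 to 10.6, n = 8) and 23.5, 16.2 and 28.4 in the mixed library. Both KO lines were thus higher in the mixed libraries, with no overlap. The control lines were not: line 15 held 82.7 ± 53.4 CPM alone (n = 8) and 57.7, 78.6 and 133 mixed, and line 18 held 45.7 ± 17.4 alone (n = 7) and 58.7, 48.2 and 23.3 mixed. In the mixed libraries the lowest control tumour (23.3) and the highest KO tumour (28.4) overlapped. The WT tumours, also from a mixed library, held 23.0, 23.9 and 17.4 CPM. These values lay within the range of the mixed-library KO tumours, although WT Mif was 2244 to 2623 CPM.

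Mif moved with these Akr1c18 UMIs. In mixed-library cells assigned to line 24, those with an Akr1c18 UMI (90 of 3261, 2.76%) held 1627 CPM of Mif, and those without held 665. For line 19 in the mixed library the values were 770 CPM in the 6.68% of cells with an Akr1c18 UMI and 196 CPM in the other 6892 cells. In line 19's own library they were 41.1 (332 cells) and 50.5 (11145 cells). So KO-assigned cells with Akr1c18 carried more Mif RNA in the mixed libraries and not in line 19's own; the part that cells of another line under a KO hashtag have in the mixed-library values was not tested. With the other hashtag call, line 24 still had 617 UMIs in 188 of 4330 mixed-library cells and 4 UMIs in 9658 cells of its own library.

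**Figure D3:**
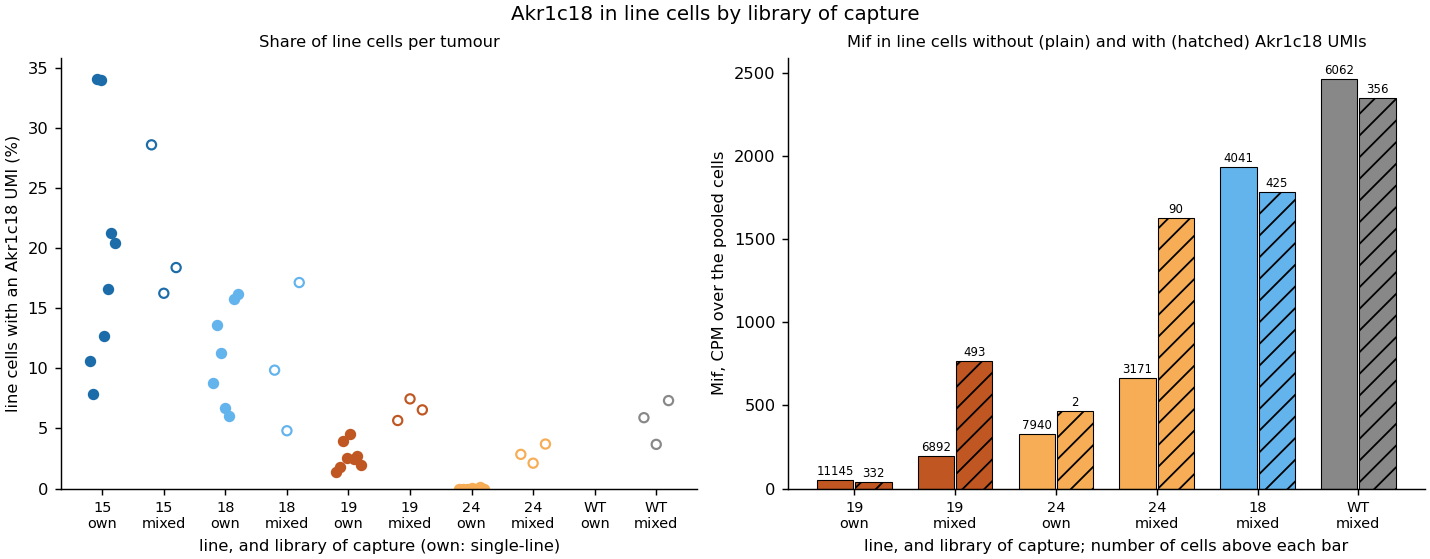
Left, percentage of line cells with an Akr1c18 UMI (y axis) by line and library (x axis), 1 point per tumour, filled for the line's own library and open for the mixed ones; right, Mif CPM (y axis) over the pooled line cells without (plain bars) and with (hatched bars) an Akr1c18 UMI, with the number of cells above each bar and no replicate error. Line 24 tumours lie near 0 in their own library and above it in the mixed one, and in the mixed libraries Mif is 1627 CPM against 665 for line 24 cells with and without Akr1c18.

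The rest of the pathway was read from a list of 46 other genes, of which 22 had enough counts in line cells. Between KO and control line cells, 7 were higher and 7 lower, where 25.1% and 24.6% of all genes were called higher and lower, with a median log2 difference of 0.03 against 0.00 over all genes. The genes that respond to cyclic AMP, the second messenger of EP2 and EP4, made up most of the higher ones: 6 of 8 rose and 1 fell, with a median of 0.89. The nuclear receptor gene Nr4a3 went from 5.60 to 22.3 CPM (log2 difference 2.02), Fos from 745 to 1458 (1.22), Nr4a1 from 177 to 336 (0.96) and Nr4a2 from 88.4 to 171 (0.93). Crem fell from 21.7 to 15.3 CPM (-0.54, edgeR adjusted p = 0.0020). These genes also respond to many other stimuli and to handling of tissue.

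Of the genes that fell, Ptgfr, the PGF2-alpha receptor gene, had a log2 difference of -1.94, and Pla2g4a, whose phospholipase frees arachidonic acid, -0.55. Akr1b3 (-0.40), Ptges2 (-0.35) and Ptges3 (-0.24) encode further terminal enzymes. Several of these calls rested on 1 line. Without line 24, Areg turned from 0.68 to -0.64 (edgeR adjusted p = 9.2e-05), Pde4d from 0.84 to -0.10, and Nr4a1 and Nr4a2 were no longer called (0.34 and 0.26). With 1 sum per line, 2 against 2, edgeR called 0 genes of any kind, and 1189 had an unadjusted p under 0.05. In the mixed libraries alone 1 list gene was called, and with library as a term 5, with Nr4a3 and Fos among them. With tumours paired by library and day (5 sets in the mixed libraries that hold both groups), 0 of 22 were called and 4 had an unadjusted p under 0.05.

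The levels in Fibroblast-like cells also differed between the groups. Ptges was 195 ± 60.1 CPM in 17 control tumours (lowest 85.8, median 185, highest 331) and 70.8 ± 30.2 in 13 KO tumours (lowest 27.1, median 81.5, highest 115). Of the controls, 16 lay above every KO tumour. The control means were 215 ± 57.9 for line 15 (n = 9) and 172 ± 57.2 for line 18 (n = 8), and the KO means 77.6 ± 33.2 for line 19 (n = 8) and 59.9 ± 23.5 for line 24 (n = 5). The difference was present in both kinds of library: 188 ± 56.1 CPM (n = 12) against 86.5 ± 23.3 (n = 8) in the single-line libraries, and 210 ± 73.5 against 45.7 ± 22.4 (n = 5 each) in the mixed ones, where the groups did not overlap. The WT tumours held 237 CPM on day 6, 150 on day 10 and 46.8 on day 16, and thus spanned both groups.

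Both cyclooxygenase genes differed the same way in Fibroblast-like cells. Ptgs1 was 50.03 ± 13.2 CPM in controls (23.6 to 67.9, n = 17) and 21.9 ± 8.30 in KO (7.03 to 38.9, n = 13). Ptgs2 was 215 ± 86.1 and 104 ± 34.3. Ptger4 was the other way round, 3.04 ± 2.76 and 9.76 ± 5.49 CPM, and Hpgd was 12 ± 14.4 and 19.7 ± 13.7. For background, of 9640 genes at a mean of 5 CPM or more, 2.84% were at least 2-fold lower in KO and 3.22% at least 2-fold higher. Ptger4 reached that mean only through the KO tumours, so no count over the members is read against these shares. No test was made here. The summed level of 8 fibroblast markers moved with it: its median was 6858 CPM for line 15, 5828 for line 18, 4296 for line 19 and 4087 for line 24, and its part in the result was not tested. That sum is mostly Dcn (3006 to 6234 CPM in controls, 2048 to 3787 in KO) and Lum, and other markers on the list went the other way: Cd34 was 0 to 28.3 CPM in controls and 22.6 to 121 in KO, and Col14a1 0 to 56.5 and 22.5 to 214. The medians of Dpt, Pi16 and Clec3b were also higher in KO. Mif in these cells had medians of 1425, 1325, 1292 and 1355 CPM in lines 15, 18, 19 and 24.

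In macrophage/monocyte-like cells, Ptger4 was 13.6 ± 6.08 CPM in 18 control tumours (lowest 3.35, median 13.7, highest 27.5) and 29.0 ± 26.7 in 17 KO tumours (lowest 7.51, median 22.2, highest 125). The groups overlapped, with 6 KO tumours above all controls. The log2 difference was 0.89 (SE 0.21), and 0.57 with library as a term. Ptgs2 was 181 ± 90.8 and 238 ± 115 CPM (log2 difference 0.48). Of the 2 members fitted, 1 was called higher and none lower, where 17.7% of 6081 genes were called higher and 17.5% lower. Since the members were chosen on these sums, nothing is read from that count. The makeup of the class moved too: the resident-type cluster B2 was 38.0% and 45.4% of it in lines 15 and 18, and 14.3% and 5.96% in lines 19 and 24. The monocyte-type B1 was 18.2%, 17.5%, 49.8% and 51.1%. Within B1, Ptgs2 was 319, 355, 335 and 353 CPM in lines 15, 18, 19 and 24. Within B3 it was 400, 411, 221 and 233, opposite in direction to the class as a whole. Ptger4 within B3 was 10.5, 14, 25.7 and 55.7 CPM, where 1 line 24 tumour at 195 CPM raised the last mean from 27.7 without it. Within B1 it was 19.2, 21.8, 19.8 and 26.1.

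Of 15 list genes fitted in this class, 6 rose and 5 fell. Nr4a3 went from 30.9 to 101 CPM (log2 difference 2.02), Crem from 51.8 to 113 (1.38) and Tbxas1, the thromboxane synthase gene, from 25.1 to 46.1 (0.83). Hpgds, the haematopoietic PGD synthase gene, fell from 58.7 to 31.3 CPM (-0.96), and Alox5ap, needed for leukotriene synthesis, from 653 to 521 (-0.27). Without line 24, Hpgds was not called (-0.65, edgeR adjusted p = 0.12), nor were Pde4b, Fos, Alox5ap and Pla2g4a. With library as a term, 3 of the 11 were called, Nr4a3 (1.65), Crem (1.25) and Nr4a2, and the same 3 in the mixed libraries alone. Tbxas1 (0.65, edgeR adjusted p = 0.242) and Hpgds (-0.79, 0.212) were among those lost with the library term. Paired by library and day, Nr4a3 alone was called (1.43). The share of B1 and B2 differed between the groups as given above, and its part in these changes was not tested.

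No member had enough counts to be fitted in T-cell-like cells, where 11.3% of 1571 genes were called higher and 13.6% lower between 12 control and 17 KO tumours. Of 9 list genes, Nr4a3 (91.9 to 197 CPM, log2 difference 1.21), Nr4a2 (167 to 300, 0.97) and Crem (145 to 218, 0.73) rose. Areg, an epidermal growth factor receptor ligand, fell from 240 to 103 CPM (-1.17, edgeR adjusted p = 0.0104; DESeq2 adjusted p = 0.18). With library as a term only Nr4a2 of these 4 was called (1.16, edgeR adjusted p = 0.0246). Nr4a3 (1.01, adjusted p = 0.0792), Crem (0.38, 0.535) and Areg (-1.15, 0.442) were not; in the mixed libraries alone, Nr4a2 and Nr4a3 were called and Crem was not. Paired by library and day (4 sets), 0 of 7 list genes were called and 3 had an unadjusted p under 0.05. Mature DC-like cells, the class with most Ptger4, reached 20 cells in tumours of the KO lines alone among the 4 lines: 115 ± 24.0 CPM in line 19 (n = 4) and 137 ± 69.3 in line 24 (n = 5).

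**Figure D4:**
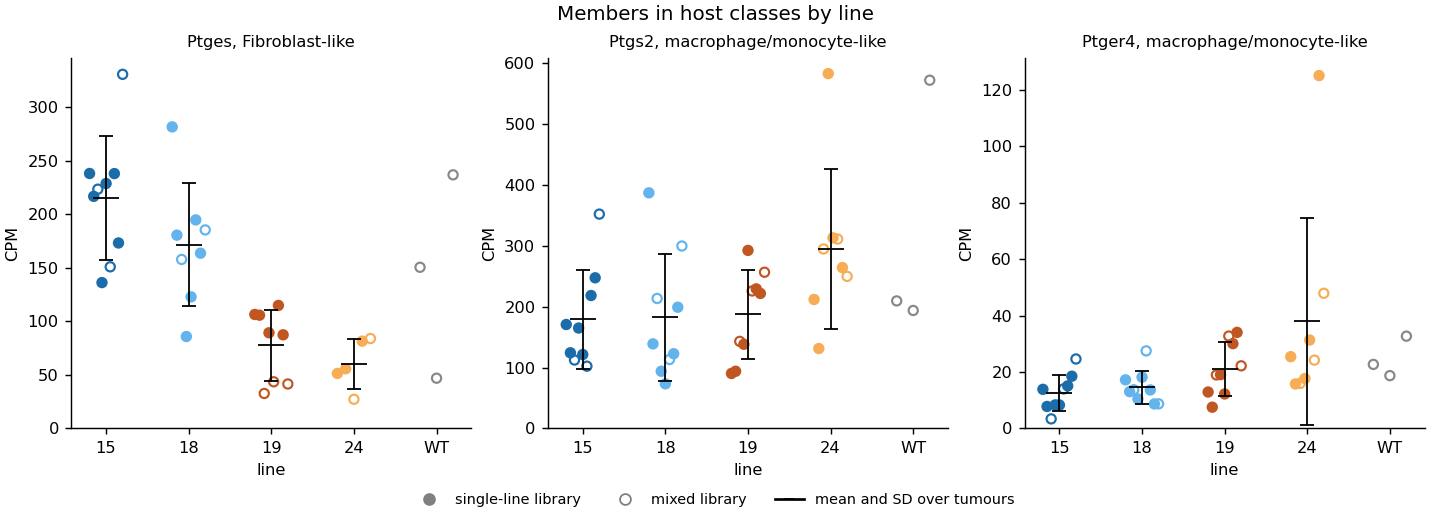
CPM (y axes) of Ptges in Fibroblast-like cells and of Ptgs2 and Ptger4 in macrophage/monocyte-like cells by line (x axes); filled points are tumours of single-line libraries, open points of mixed libraries, bars the mean and SD. Ptges means are 215 and 172 in the control lines and 77.6 and 59.9 in the KO lines, with WT tumours at 237, 150 and 46.8.

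The days were compared within the single-line libraries, with line as a term. Against 7 day 0 tumours, the 23 later tumours had Ptgs2 at 74.5 ± 34.4 CPM (24.3 to 154) where day 0 had 36.6 ± 14.7 (18.1 to 58.8), a log2 difference of 0.85; it was 1.65 without line 19 and 0.50 without line 24. Ptges was 0.926 and 2.83 CPM on day 0 and later (1.80), Akr1c18 14.4 and 40.1 (1.27), Ptger4 0.404 and 0.936 (1.59), Ptgs1 45.1 and 28.5 (-0.67, and -0.18 without line 24). Of 6 members fitted, 4 were called higher and 1 lower, where 24.9% of 12292 genes were called higher and 26.9% lower. Day 0 cells were 91.8% line cells, against 61.5% of later cells in the single-line libraries. Of the other day 0 cells, 438 were in cluster A5, an unnamed cluster with a median of 1446 UMIs that over all libraries was 13.3% of line 24 cells and at most 0.216% of each other line, and 85 were in other clusters. The part of host RNA in the low Ptges and Ptger4 levels was not tested.

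Of 23 list genes, 10 were higher after day 0 and 6 lower. The immediate-early genes were the largest: Nr4a1 went from 33.1 to 306 CPM (log2 difference 3.26), with Nr4a3 at 3.14, Nr4a2 at 3.11, Fos at 2.32 and Areg at 2.26. Pla2g4a fell from 149 to 62.4 CPM (-1.33), with all 23 later tumours below all day 0 tumours, and Akr1c14 had a difference of -1.65.

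Between day 6 and day 16 (7 and 8 tumours), Ptgds was 22.9 and 52.7 CPM, a log2 difference of 1.40, and Ptges 2.0 and 3.11 (0.58). Of 6 members fitted, 2 were called higher and none lower, where 15.3% of genes were called higher and 11.3% lower. Of 23 list genes, Ptgfr rose from 0.573 to 6.89 CPM (3.61) and Fos rose (1.11), while Abcc4, which encodes a prostaglandin exporter, fell (-0.44). The Fos and Abcc4 calls were lost without line 15 or without line 18.

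Co-detection asked whether 2 members were in the same line cells, each cell thinned to 1000 UMIs. Of 8 pairs, 5 had enough cells. Among cells with Ptgs2, 6.80% had Akr1c18, against 2.09% of cells without Ptgs2. There were 235 cells with both, where 111 would follow from the separate shares within each tumour, 2.11 times as many, with 28 tumours above and 4 below that number out of 39 (sign-flip permutation over tumours, two-sided, adjusted p = 5e-05 over 5 pairs; the smallest p that 100000 resamples give before adjustment is 1e-05). Line 15 had 133 such cells against 62.5 expected, line 18 had 76 against 40.3, line 19 had 22 against 7.72 and line 24 had 4 against 1.0. All 4 of line 24 were in mixed-library tumours, 2 on day 6 and 2 on day 10. For line 19, mixed-library tumours held 3, 2 and 9 on days 6, 10 and 16. The part of another line's cells under a KO hashtag there was not tested. In the single-line libraries alone, 156 cells held both against 74.9 expected. Thinned cells do not differ in depth, but line cell state differs. Within cluster A3, where Akr1c18 stood at 101 ± 84.0 CPM, 85 cells held both against 48.2 expected from that cluster's own shares in each tumour (11 of 14 tumours above). Within A2 there were 37 against 17.6 (6 of 7 above), and within A0 1 against 1.32; these values carry no test.

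Ptgs1 and Ptgs2 were together in 130 cells where 92.7 were expected, 1.40 times (20 of 31 tumours above; permutation adjusted p = 0.0151). That call was lost without line 15 (1.23 times; permutation adjusted p = 0.285), without line 19 (1.39 times; 0.064) and in the single-line libraries alone (1.28 times; 0.078). Ptgs2 with Ptges gave 10 cells against 9.31 expected (permutation adjusted p = 0.837), and Ptgs1 with Ptges 7 against 4.39 (0.540). All 7 of the latter were from line 19, where 2.55 were expected; without it there were 0 cells against 1.84 expected, a difference too small to read at this depth, and no p is given for it because a pair with no shared cell can lie above its expectation in no tumour. For Ptgs2 with Hpgd there were 0 cells against 0.299 expected. The count against expectation was chosen after seeing the data, because the ratio first planned adds 0.5 to each count and comes out above 0 for rare genes: it gave mean log2 values of 2.13 ± 1.41 for Ptgs2 with Akr1c18, 0.47 ± 0.82 for Ptgs1 with Ptgs2, and 3.85 for Ptgs2 with Hpgd, which had no cell in common.

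**Figure D5:**
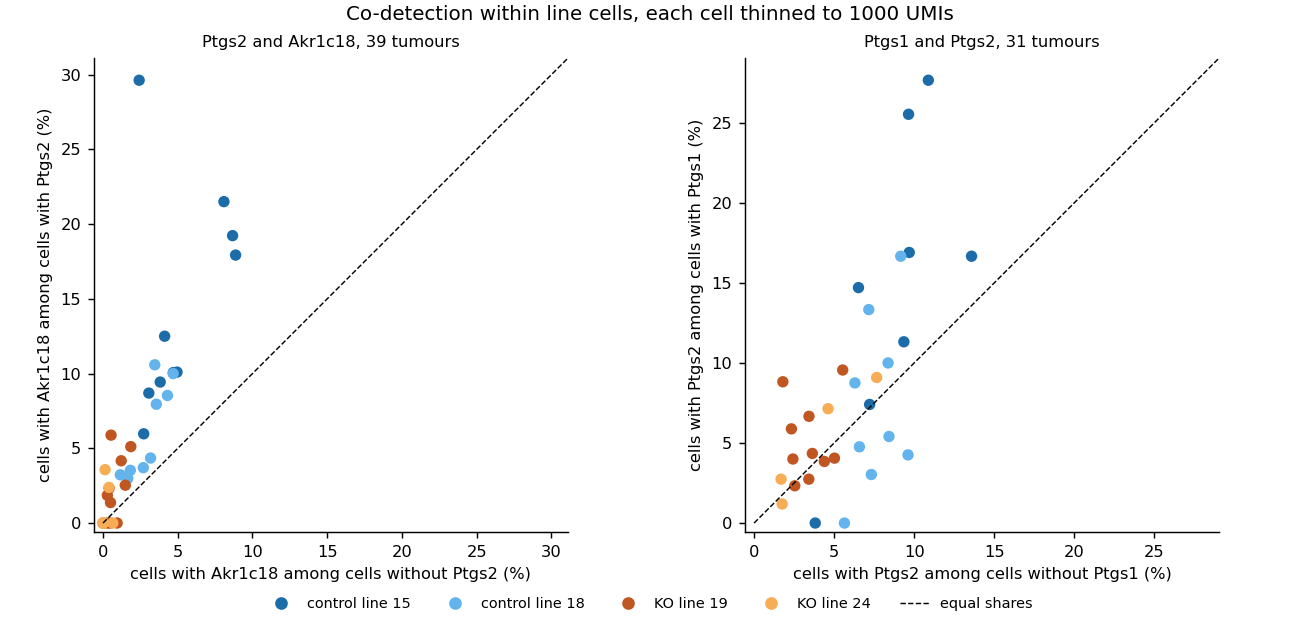
Share of cells with the second gene among cells with the first (y axis, %) against its share among cells without the first (x axis, %), line cells thinned to 1000 UMIs; each point is 1 tumour and the dashed line marks equal shares. For Ptgs2 and Akr1c18 the points of lines 15 and 18 lie above the line, and for Ptgs1 and Ptgs2 they lie on both sides.

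Over 45 tumours, the genes whose line-cell levels were most like a member's (Pearson r of log2 CPM, among 9566 genes, a description) were Prnp (0.86) and Aqp5 (0.85) for Ptgs1, 9330188P03Rik (0.86) and Col5a3 (0.82) for Ptgs2, Fcgrt (0.86) and Fn1 (0.85) for Ptgds, and 1700012B09Rik (0.92) and Atp2a3 (0.91) for Akr1c18. Over 11 class means, they were Fgf7 and Mfap5 (both 0.95) for Ptges, Tgm1 (0.96) for Hpgd, Gm15340 (0.91) for Ptger2 and Map3k14 (0.91) for Ptger4. Among the members, r over the 45 tumours was 0.52 for Ptgs2 with Akr1c18, -0.43 for Ptgds with Akr1c18 and -0.12 for Ptgs1 with Ptgs2; tumours of 1 line share that line and mostly 1 library.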

How the data were processed

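Tumour cells were hashed, sorted alive and profiled with 10x 5′ v2 libraries, per the labels' protocols. The deposited matrices hold raw UMI counts made by the authors with Cell Ranger 6.0.0 on mm10, per the submitters' processing notes. Whether counting used the strand is not given in those sources. Kept cells had 300 genes or more and no more than 15% mitochondrial UMIs. Hashtags were called with Seurat 5.3.0 (HTODemux), and doublets and unhashed cells were left out. Clustering used 2000 variable genes, 30 components, 15 neighbours and Leiden resolution 1.0 (igraph 0.11.9). The members and listed pathway genes took no part in it. Cells of clusters where Ptprc was common were clustered again in the same way. A cluster, of 57, was named where at least 3 markers stood at 2-fold or more in at least 10% of its cells. The 8 clusters that were mostly doublets (13070 cells) were left out. UMIs were summed per tumour and class and tested with edgeR 4.0.16 (quasi-likelihood, TMM, filterByExpr, day or line as covariate) with Benjamini-Hochberg adjustment over all genes; the scripts were tested on simulated data. Other settings tried were no count filter, 1 sum per line, RLE scaling, DESeq2 1.42.0, library settings, another hashtag call, stricter cells and leaving out lines. Named genes were all 8 members and, of the 46 list genes, up to 6 per direction with the largest change. The members and lists were chosen with earlier results of these data known. Nothing in the labels says that tumours came from separate animals, so p-values measure the spread between these samples. The hashtags of 2 tumours (line 18, day 0 and line 24, day 6) held under 0.1% of their library's hashtag counts and were left out.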

Additional observations from a re-analysis of the deposited data

Results flagged for a closer look

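Of 62 groups of 4 to 10 tumours, 13 had a tumour far from the others. The limit used flags about 1 in 20 groups by chance when values are normally distributed; low counts are not, and no rate was measured for them. In Fibroblast-like cells these were Akr1c18 at 71.9 CPM in line 18, day 10, mixed library (next 31.1; 46 UMIs in 68 cells), Hpgd at 56.7 in line 15, day 6 (next 18.7; 36 UMIs in 61 cells) and Ptgds at 23.7 in line 19, day 10 (next 7.03; 11 UMIs in 46 cells). In macrophage/monocyte-like cells, Ptgs2 stood at 583 CPM in line 24 on day 16 (next 313; 66 UMIs in 81 cells). Ptger4 in that class was 125 in line 24 on day 6 (next 47.9; 9 UMIs in 61 cells) and 27.5 in line 18 on day 16 (next 18.1; 59 UMIs in 726 cells). Akr1c18 in it was 16.9 in line 15 on day 6 (next 6.70; 11 UMIs) and 31.9 in line 24 on day 10 (next 10.3; 4 UMIs). Hpgd was 28.6 in line 19 on day 16 (next 11.3; 6 UMIs), and Ptgds 22.5 in line 19 on day 10 (next 12.2; 6 UMIs). In T-cell-like cells, Ptgds was 32.5 in line 18 on day 6 from 1 UMI, Ptger2 43.1 in line 15 on day 6 from 3 UMIs, and Ptgs1 23.9 in line 19 on day 16 from 2 UMIs.

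Within the single-line libraries, Ptgs2 in line cells after day 0 went in opposite directions between lines: the log2 difference was 1.61 for line 15, 1.11 for line 18 and 1.81 for line 24, while line 19 had -0.77. That difference between lines was not tested.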

How the results depend on the processing

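The counts are of list genes past the threshold. For line cells, KO against control, 14 were called, 0 with 1 sum per line, 1 in the mixed libraries alone and 5 with library as a term; over all genes these counts were 5853, 0, 193 and 1739. Paired by library and day within the mixed libraries, 0, 1 and 0 were called in line, macrophage/monocyte-like and T-cell-like cells (all genes 117, 86 and 31). For macrophage/monocyte-like cells 11 were called, 3 in the mixed libraries alone, 3 with library as a term and 6 to 13 leaving out each line (all genes 2145, 228, 254, and 794 without line 24; 1407 in the single-line libraries alone). For T-cell-like cells 4 were called, 2 in the mixed libraries alone, 1 with library as a term and 2 to 4 leaving out each line (all genes 390, 50, 50, and 171 without line 24; 644 with no count filter). For day 16 against day 6, 3 were called, 6 with no count filter and 1 to 5 leaving out each line (all genes 3267, and 1580 and 1386 without lines 15 and 18). Leaving out each line, the log2 difference in line cells ran from -0.64 to 1.42 for Areg and from -0.10 to 1.58 for Pde4d, negative without line 24; Areg was also -0.015 with that pairing. Co-detection was called for 5 pairs, and for 2 by the count against expectation. Among named classes and line cells, without unnamed clusters such as B13 and B7, the class with the highest mean was compared with the main setting. It was the same for 5 of 8 members with the stricter cell filter (at least 1000 UMIs, at most 10% mitochondrial). It was the same for 6 with the marker gate per cell or the other hashtag call. In that main ranking Neutrophil-like cells came first for Ptgs2, Akr1c18 and Ptger2. Of the settings for single list genes, 420 kept their direction and side of the threshold, 123 lost the call and 3 reversed. The pairing, the single-line libraries alone, leaving out the line clusters A7 and A16 of low UMI count, and the count against expectation were chosen after seeing the data. Causes were not tested. The hashtag sheet gives each tumour a replicate letter, C for all mixed-library tumours and A or B for the rest. Tumours were paired only by shared library and day, which the mixed libraries allow. Depth limits Ptger2, Hpgd and every Neutrophil-like value, which rest on few UMIs.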
